A study of Homo sapiens with 8 samples.

Results

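The human ZBTB family, without ZBTB48 itself, was examined at its promoters. Members were the protein-coding genes of GENCODE 44 on chromosomes 1 to 22 and X whose symbol is ZBTB followed by a number and an optional letter. The rule gave 40 of 19970 protein-coding genes. Open chromatin was measured by FAIRE-seq, in which DNA free of nucleosomes is extracted from fixed chromatin and sequenced, in U2OS, a human osteosarcoma cell line. The 8 libraries fell into 4 groups of 2: wild type (WT) untreated, WT with IFNγ, ZBTB48 knockout (KO) untreated and KO with IFNγ. The clones were WT_4 and WT_5 for WT and KO_C5 and KO_D2 for KO, and each gave 1 untreated library and 1 library after 250 U/ml IFNγ. The labels give 24 h of IFNγ, while the study's text names a longer time, so the duration is uncertain. Each clone is a single cell line derivative, so 2 clones stand for each genotype.

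ZBTB proteins carry a BTB (POZ) domain at the amino terminus and C2H2 zinc fingers towards the carboxyl terminus. The zinc fingers read specific DNA sequences, while the BTB domain forms dimers and docks corepressor complexes or the CUL3 ubiquitin ligase. Many members are known as repressors, and several direct the choice of fate in lymphoid, myeloid, neural or muscle cells. ZBTB48, the gene removed in the KO clones, is a family member that binds telomeric repeats and a limited number of promoters.

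A promoter was called open in a library when a peak of that library's list lay within 1 kb of any transcription start site (TSS) of the gene. The strongest such peak, by −log10 p, was described by its fold enrichment over local background and by its percentile, the rank of its −log10 p among all peaks of the same list, where 100 is the strongest. Peak lists hold no read counts, so the depth of a library could not be given directly. The lists held 16788 to 37655 peaks, and the lowest local background in a list, a stand-in for depth, was 0.621 to 1.08 fragments. At shared promoters the local background was higher in KO than in WT libraries, 1.98 to 3.32 against 1.02 to 1.77 fragments (medians over 10395 genes). Both fold enrichment and −log10 p depend on that background, so folds and percentiles between genotypes are read with that in mind. Among markers of the cell line, promoter peaks of VIM, COL1A1 and RUNX2 were in all 8 libraries, SPARC in 5 and COL1A2 in none. The leukocyte genes PTPRC and CD3E and the hepatocyte gene ALB had none, while of the epithelial genes EPCAM had a peak in 8 libraries and CDH1 in 2.

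Promoter sequences of 6 members that the results below turn on are shown first. Each is the 200 bases before the RefSeq start (GRCh38.p14), printed 5′ to 3′ on the strand of the gene, with CG dinucleotides in capitals. ZBTB5 was chosen as a promoter open everywhere that varied between clones. ZBTB39 and ZBTB34 are a pair at the low end of the family. ZBTB26 lacked a peak in 1 library, and ZBTB46 had peaks in 1 clone of each genotype. ZBTB32 was the only member without any promoter peak. The positions are chr9:37465451-37465650 (minus strand) for ZBTB5, chr12:57006547-57006746 (minus) for ZBTB39, chr9:126860439-126860638 (plus) for ZBTB34, chr9:122931513-122931712 (minus) for ZBTB26, chr20:63831265-63831464 (minus) for ZBTB46 and chr19:35704358-35704557 (plus) for ZBTB32.
ZBTB5: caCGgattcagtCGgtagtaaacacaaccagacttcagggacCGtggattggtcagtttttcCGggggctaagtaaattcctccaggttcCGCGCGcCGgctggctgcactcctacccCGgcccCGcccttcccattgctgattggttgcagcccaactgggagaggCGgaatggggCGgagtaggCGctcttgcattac
ZBTB39: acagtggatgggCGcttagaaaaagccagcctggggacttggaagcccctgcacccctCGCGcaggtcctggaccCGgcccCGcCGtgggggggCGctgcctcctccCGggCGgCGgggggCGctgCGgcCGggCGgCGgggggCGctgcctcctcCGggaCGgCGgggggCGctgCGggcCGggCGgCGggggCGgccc
ZBTB34: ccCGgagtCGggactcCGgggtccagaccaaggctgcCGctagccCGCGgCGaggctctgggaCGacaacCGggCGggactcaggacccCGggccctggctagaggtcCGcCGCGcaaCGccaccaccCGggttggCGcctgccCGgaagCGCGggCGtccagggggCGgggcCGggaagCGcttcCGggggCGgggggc
ZBTB26: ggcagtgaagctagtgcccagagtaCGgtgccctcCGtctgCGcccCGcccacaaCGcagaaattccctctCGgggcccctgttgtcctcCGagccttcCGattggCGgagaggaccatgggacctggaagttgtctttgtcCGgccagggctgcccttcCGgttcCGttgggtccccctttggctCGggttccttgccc
ZBTB46: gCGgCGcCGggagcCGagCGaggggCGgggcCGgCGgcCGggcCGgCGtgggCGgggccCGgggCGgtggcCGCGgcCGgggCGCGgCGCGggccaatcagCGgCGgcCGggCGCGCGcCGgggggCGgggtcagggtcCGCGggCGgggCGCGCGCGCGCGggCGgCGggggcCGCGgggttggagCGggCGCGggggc
ZBTB32: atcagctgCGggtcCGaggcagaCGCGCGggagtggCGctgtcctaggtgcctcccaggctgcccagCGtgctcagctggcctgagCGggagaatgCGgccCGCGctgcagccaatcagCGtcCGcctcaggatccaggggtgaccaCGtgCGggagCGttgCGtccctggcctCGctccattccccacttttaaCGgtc

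The windows of ZBTB5 and ZBTB26 held 13 CG each, at 59.5% and 65.0% GC. Those of ZBTB39 and ZBTB34 held 25 and 26 CG at 81.5% and 78.5% GC, and the ZBTB46 window held 45 at 92.5% GC. ZBTB32, without a promoter peak, still held 19 CG at 68.5% GC. A peak overlapped the printed window in 8 libraries for ZBTB5, ZBTB39 and ZBTB34, in 7 for ZBTB26, in 1 for ZBTB46 and in 0 for ZBTB32.

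The family was open at most of its promoters. A peak was found in all 8 libraries for 34 of 40 members, or 85.0%, against 52.1% of all protein-coding genes. No promoter peak was found in any library for 1 member, ZBTB32, or 2.5%, against 26.2% of all protein-coding genes. The other 5 members had a peak in 3 to 7 libraries, and 35 to 38 members were open in any 1 library, while 58.7% to 69.8% of all genes were. The count in all 8 libraries was 30 when every list was shortened to the length of the shortest, since ZBTB10, ZBTB16, ZBTB34 and ZBTB39 then lost peaks. Over all genes that count fell from 10395 to 9402. No test was made of these shares.

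**Figure D1:**
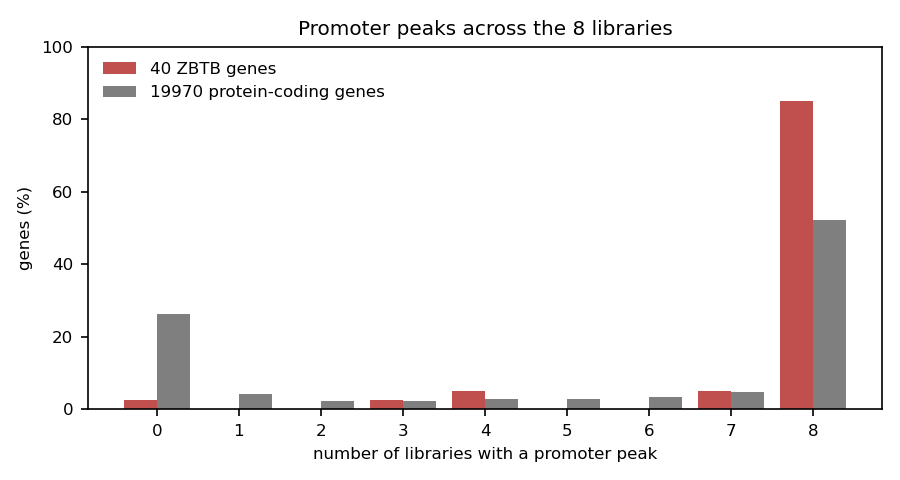
Share of genes (y axis, percent) by the number of libraries with a promoter peak (x axis), for the 40 ZBTB genes (red) and all 19970 protein-coding genes (grey). The red bar at 8 libraries reaches 85.0% and the grey bar 52.1%, and at 0 libraries they stand at 2.5% and 26.2%.

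Base composition gives a setting for these shares. Within 250 bases either side of the canonical TSS, the ratio of observed to expected CpG was at least 0.6 in 34 of 40 members (85.0%), in 68.5% of all protein-coding genes, in 93.6% of all genes open in 8 libraries and in 18.6% of all genes without a peak. The median GC content was 69.1% over the members and 64.7% over all genes. Of the members, 34 had a RefSeq promoter window of 300 bases, from 250 before to 50 after the start. ZBTB6, ZBTB10, ZBTB16, ZBTB17, ZBTB40 and ZBTB41 did not. Among the 34, the GC box core GGGCGG was found in 24 (70.6%, against 59.2% of 15315 promoters of the same length), CCAAT in 15 (44.1% against 36.6%) and the ETS core CCGGAAG in 9 (26.5% against 14.4%), counting both strands. Of the interferon-related patterns, TTCNNNGAA was in 1 (ZBTB14; 2.94% against 6.97%) and GAAANNGAA in 2 (ZBTB32 and ZBTB33; 5.88% against 7.04%). The telomeric hexamer TTAGGG, bound by ZBTB48, was in 3 (ZBTB8A, ZBTB21 and ZBTB43; 8.82% against 8.69%), and CTCGCGAG was in 0 (1.58% of all). These are matches of letters and were not tested.

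Within the lists, family promoters spanned weak to very strong peaks. Over the 34 members open in all libraries, the mean percentile ran from 34.8 to 96.5 with a median of 79.3, beside 76.9 over the 10395 genes open in all libraries. The range of a member over the 8 libraries reached 83.4 points (ZBTB16), with a median of 24.7 points, beside 22.6 for all such genes. Members in the middle of the order included ZBTB41 (70.6 to 93.9), ZBTB12 (69.5 to 89.2), ZBTB49 (55.6 to 78.3) and ZBTB22 (48.3 to 83.0). The heat map of percentiles by library gives all members.

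**Figure D2:**
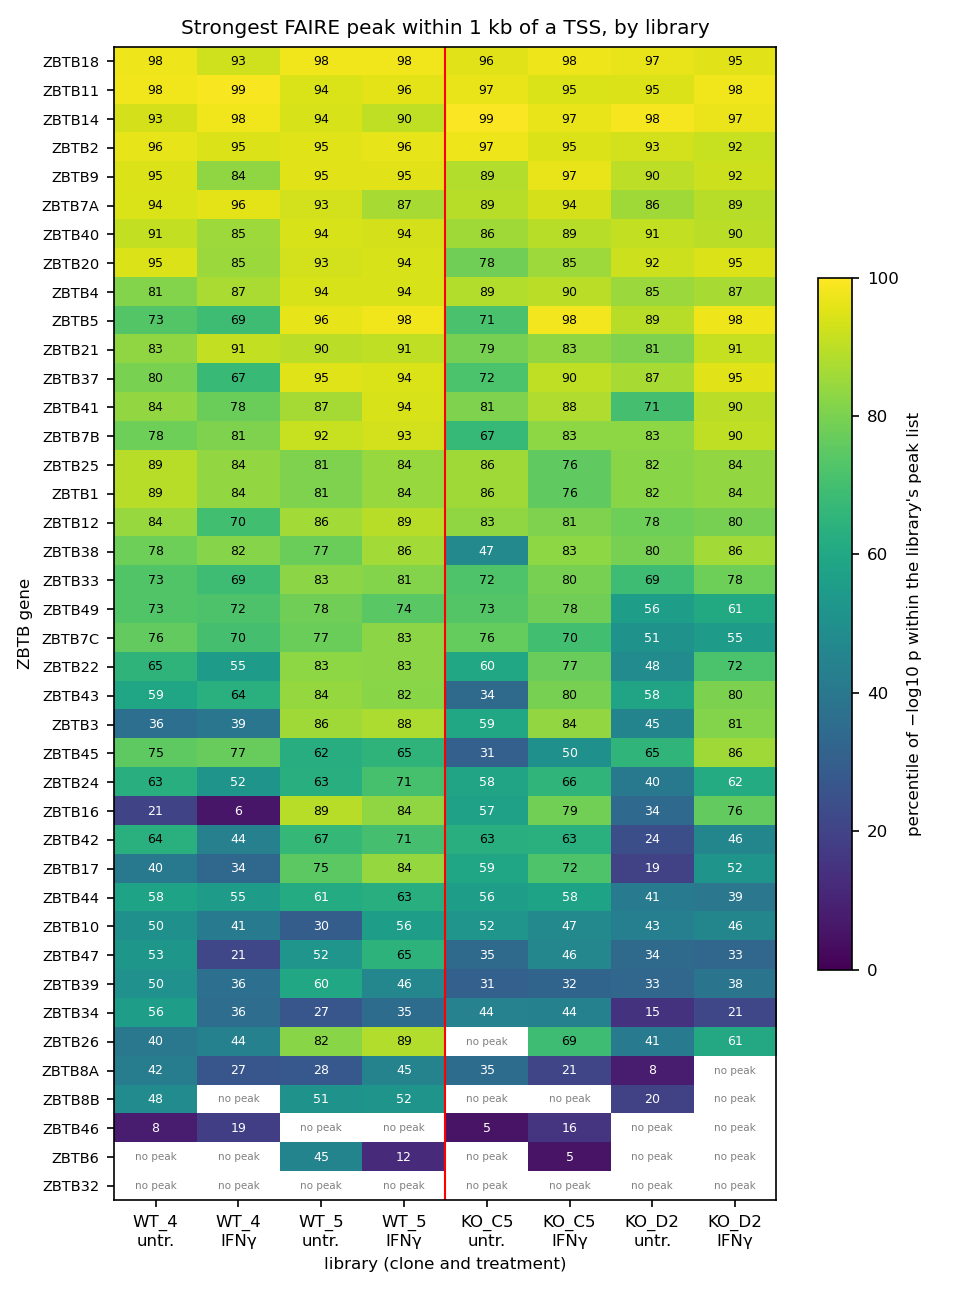
Percentile of the strongest promoter peak within its library's list (colour and printed number, 0 to 100) for each of the 40 members (rows, by number of libraries with a peak and then by mean percentile) in the 8 libraries (columns, WT left and KO right of the red line). White cells have no peak. ZBTB18, ZBTB11, ZBTB14 and ZBTB2 stay above 90 in every library, and ZBTB32 at the foot has no promoter peak.

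The 8 members with the highest mean percentile were ZBTB18, ZBTB11, ZBTB14, ZBTB2, ZBTB9, ZBTB7A, ZBTB40 and ZBTB20, with means from 96.5 down to 89.7. ZBTB18, a transcriptional repressor that acts in cortical neuron development and is also known as RP58, led them. Its percentiles were 97.6 and 93.0 in WT_4 (untreated, then IFNγ), 98.0 and 97.9 in WT_5, 95.6 and 97.7 in KO_C5, and 96.7 and 95.5 in KO_D2. All 8 lay within 5.02 points of each other. Fold enrichment at that peak was 55.3 to 130. The peak (chr1:244047751-244048716) lay over the upstream TSS, 2828 bp from the canonical TSS, and no library had a peak within 1 kb of the canonical TSS itself, whose surroundings had 39.9% GC.

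ZBTB11 and ZBTB14 followed. ZBTB11 ran from 94.2 (WT_5 untreated) to 98.8 (WT_4 with IFNγ), with fold enrichment of 45.0 to 123. ZBTB14 ran from 90.4 (WT_5 with IFNγ) to 99.2 (KO_C5 untreated). ZBTB2, which represses the p21 gene CDKN1A in the p53 pathway, ran from 91.6 to 97.4. ZBTB9 ran from 83.6 to 96.6, ZBTB7A, a repressor of fetal globin genes, from 85.6 to 95.8, ZBTB40 from 85.2 to 93.9, and ZBTB20, which acts in hippocampus and liver, from 78.4 to 94.9. Neighbours in this order overlap in range, while ZBTB11 lay above ZBTB40 in every library.

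The 5 lowest of the 34 were ZBTB34, ZBTB39, ZBTB47, ZBTB10 and ZBTB44, with mean percentiles of 34.8, 40.9, 42.4, 45.7 and 54.0. The ZBTB34 promoter, whose GC-rich sequence is printed above, had percentiles of 55.9 and 35.6 in WT_4, 26.8 and 35.5 in WT_5, 44.3 and 43.8 in KO_C5, and 14.7 and 21.3 in KO_D2. It was lowest in KO_D2 in both treatments. ZBTB10, a telomere-binding relative of ZBTB48, ran from 29.6 to 56.2, ZBTB47 from 21.4 to 64.5 and ZBTB44 from 39.5 to 62.7. These also overlap one another.

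5 members were open in some libraries. ZBTB26 had percentiles of 40.1 and 44.1 in WT_4, 82.2 and 88.6 in WT_5, 68.8 in KO_C5 with IFNγ, and 41.2 and 60.5 in KO_D2, with no peak in KO_C5 untreated. ZBTB8A lacked a peak in KO_D2 with IFNγ and lay between 7.73 and 44.6 elsewhere. ZBTB8B had percentiles of 48.4 in WT_4 untreated, 50.9 and 51.7 in WT_5 and 19.7 in KO_D2 untreated, and no peak in the other 4 libraries. ZBTB6 had peaks in WT_5 (45.0 untreated and 12.2 with IFNγ) and in KO_C5 with IFNγ (5.18), with folds of 9.46, 4.62 and 4.65. The ZBTB8B peak was thus in 3 WT libraries and 1 KO library, and the ZBTB6 peak in 2 and 1. With lists cut to equal length ZBTB8A kept peaks in 4 libraries, ZBTB8B in 3 and ZBTB6 in 1.

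ZBTB46, a marker of classical dendritic cells, had peaks in WT_4 (7.81 and 18.7) and in KO_C5 (5.10 and 15.5) and in neither WT_5 nor KO_D2. The folds were 4.75 to 6.41, and the peaks did not stand at 1 place: 4 sites were used, none in more than 2 libraries, 437 to 55953 bp from the canonical TSS. The 250 bases either side of that TSS had 88.0% GC, the highest of the family. WT_4 and KO_C5 are replicate 1 of their genotypes, and the labels do not say whether libraries with that number share anything else. With lists cut to equal length ZBTB46 kept a peak in 1 library of 4. ZBTB32, a repressor in lymphocytes, had no peak near any TSS in any library. Inside the gene, over 1 kb from every TSS, it had 1 peak in every library but KO_C5 untreated.

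Among members known from lymphoid and myeloid lineages (ZBTB1, ZBTB7A, ZBTB7B, ZBTB16, ZBTB17, ZBTB20, ZBTB32 and ZBTB46), 6 of 8 were open in all libraries. ZBTB7B, which sets the CD4 T cell lineage, ran from 67.2 to 93.3. ZBTB1, needed for lymphocyte development, shares its promoter with ZBTB25, and 1 peak (chr14:64503262-64505507) served both, with a median width of 2151 bp and percentiles of 75.7 to 89.4. The values of these 2 genes are therefore the same measurement. ZBTB17, the MYC partner MIZ1, varied far more, from 19.2 in KO_D2 untreated to 84.2 in WT_5 with IFNγ.

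ZBTB16 (PLZF), a factor of innate-like T cells, counted as open in all libraries only because peaks at different sites were pooled. The strong site (chr11:114159961-114160401) lies at an internal TSS, 100451 bp from the canonical one. It had percentiles of 89.3 and 83.5 in WT_5, 57.2 and 78.8 in KO_C5, and 34.1 and 75.8 in KO_D2, and no peak in either WT_4 library. The values used for WT_4 (20.6 and 5.95) came from a weak site near the start of the gene (chr11:114060428-114061278), which had peaks of 5.95 to 20.6 in 6 libraries. Another site (chr11:114059584-114059971) had a peak in 2 libraries, WT_4 and WT_5 untreated (10.7 and 14.1).

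**Figure D3:**
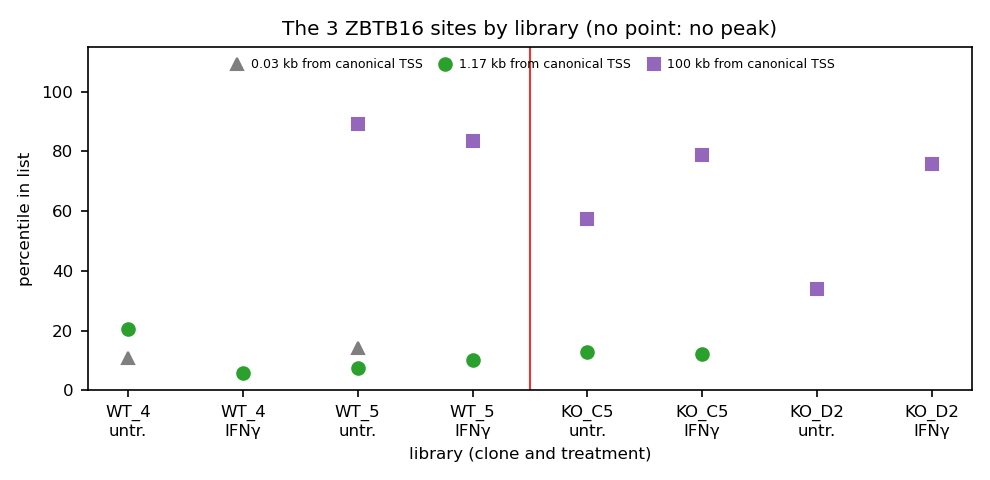
Percentile within the list (y axis) of the peaks at the 3 ZBTB16 sites in the 8 libraries (x axis, WT left and KO right of the red line), by distance of the summit from the canonical TSS. No point means no peak. The far site (purple squares) reaches 89.3 in WT_5 and is absent from both WT_4 libraries.

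In all, the 39 members with a peak used 56 sites, and 12 members had more than 1. A single site was found in all 8 libraries for 33 members, which leaves ZBTB16 as the only one of the 34 without such a site. The peak region held the start of another gene for 18 members. For 5 of them this was a protein-coding gene: POLR2A at ZBTB4, LYAR at ZBTB49, an unnamed gene at ZBTB8B, and ZBTB1 and ZBTB25 at each other. For the other 13 it was noncoding, such as GAS5 at ZBTB37. A peak there cannot be assigned to 1 gene.

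The 3 methyl-CpG binding members, ZBTB4, ZBTB33 (Kaiso) and ZBTB38, were open in all libraries, at 81.4 to 94.0, 68.8 to 82.6 and 47.0 to 86.1. The ZBTB4 peak lay 5154 bp from its canonical TSS, in a region that also holds the POLR2A start. Only 1 library had a ZBTB4 peak within 1 kb of the canonical TSS. ZBTB24, mutated in an immunodeficiency with loss of methylation at centromeric repeats, ran from 40.3 to 71.0. The 5 members tied to p53 and cell cycle arrest were ZBTB2, ZBTB4, ZBTB5, ZBTB7A and ZBTB17. Their median of the mean percentiles was 88.3, that of ZBTB4, and all 5 were open in all libraries. So were the 4 of neural and muscle development: ZBTB18, ZBTB20, ZBTB42 (24.0 to 70.5) and ZBTB45 (30.5 to 85.6). Their median was 76.8.

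Related genes outside the name rule were described in the same way. Of 8 BTB zinc finger genes without a ZBTB symbol, 5 were open in all libraries: BCL6, BCL6B, PATZ1, GZF1 and ZNF131. MYNN had a peak in 7, HIC2 in 3 and HIC1, a tumour suppressor gene, in 2. All 5 partner genes of BTB domains described here (CUL3, NCOR1, BCOR, SIN3A and HDAC3) were open in all libraries, with mean percentiles from 39.8 (BCOR) to 97.1 (SIN3A). Of these 13 genes, 10 entered the fits described below. None passed in the comparison of WT with KO, and 1 passed for IFNγ in the KO clones with clone as a block, a fit that called 13.1% of all genes higher. That fit called 0 genes when promoters were ranked among shared ones.

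The first comparison asked whether loss of ZBTB48 changed the openness of its relatives' promoters. ZBTB48 itself kept its promoter peak in every library, at 90.5, 83.7, 89.8 and 95.3 in the WT libraries and 64.0, 72.2, 87.5 and 90.1 in the KO libraries. A promoter peak does not measure the ZBTB48 transcript or protein, so it does not check the knockout.

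By percentile no member separated the genotypes. The percentiles of the 4 WT libraries lay above all 4 KO libraries for 0 of 34 members (6.77% of 10395 genes) and below them for 0 of 34 (0.298% of genes). Without the WT_4 library with IFNγ the counts were 4 (ZBTB12, ZBTB39, ZBTB42 and ZBTB47), beside 15.0% of the 10522 genes then open in all libraries, and 1 (ZBTB14), beside 0.399%. WT means were above KO means for 28 of 34 members and for 78.1% of all genes. The median difference, WT minus KO, was 3.18 points over the members and 3.50 points over all genes, and the members ran from −11.6 to 14.6 points. With limma on clone means, Benjamini-Hochberg adjusted over all 10395 genes, 0 genes were called, no member had an unadjusted p under 0.05, and 162 genes of all did. With the percentile of fold enrichment or log2 fold enrichment centred on the median of each list in its place limma again called 0 genes, with 830 and 1094 genes at an unadjusted p under 0.05.

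Means of both clones of 1 genotype lay beyond both of the other for 4 members, ZBTB39, ZBTB7C, ZBTB21 and ZBTB14. The ZBTB39 percentiles were 50.5 and 36.3 in WT_4, 60.0 and 46.1 in WT_5, 30.9 and 32.2 in KO_C5, and 33.1 and 38.3 in KO_D2. Only the WT_4 library with IFNγ fell within the KO values. WT had a mean of 48.2 ± 6.81 and KO of 33.6 ± 2.95 (SD, n = 2 clones each), a difference of 14.6 points (exact permutation test, two-sided p = 0.333, the smallest that 4 clones allow). Ranked among only the 10395 shared promoters the ZBTB39 difference was 1.79 points (exact permutation p = 0.667).

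ZBTB7C differed by 13.6 points (WT 76.6 ± 4.88, KO 63.1 ± 14.0), and the 2 KO clones themselves differed by 19.9 points, KO_C5 being the higher. ZBTB21 differed by 4.94 points (WT 88.6 ± 2.19, KO 83.7 ± 3.16), or by 2.32 points without KO_D2 untreated (exact permutation p = 1.0). ZBTB14 went the other way, by −4.00 points (WT 93.9 ± 2.39, KO 97.9 ± 0.190), by −7.81 points with equal list lengths and by −13.7 among shared promoters. By log2 fold enrichment centred on the list median it was 0.13, where the sign turned. On percentiles all 3 had p = 0.333 by the same exact permutation test. These 3 and ZBTB39 are listed because their clone means do not overlap between genotypes. That fixes this p at its smallest possible value, so it adds nothing to the description. Both WT clone means were above both KO clone means in 27.2% of all genes and below in 2.2%, beside 3 (8.82%) and 1 (2.94%) of 34 members.

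Fold enrichment was higher in WT in mean for 33 of 34 members and for 92.2% of all genes. The median difference was 0.54 on the log2 scale over the members and 0.57 over all genes. The pileup at the summit and the local background moved unequally: at ZBTB11, for example, WT libraries had a local background of 0.883 to 1.46 fragments and KO libraries one of 1.98 to 3.47. The pileup there was 138 to 238 fragments for WT against 136 to 200 for KO. All 4 WT folds lay above all 4 KO folds for 6 of 34 members, ZBTB7B, ZBTB7C, ZBTB20, ZBTB21, ZBTB39 and ZBTB40, and for 23.6% of all genes. The part of the background in the fold and percentile differences was not tested.

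The 2 WT clones were also set beside each other. Both WT_5 libraries lay above both WT_4 libraries for 20 of 34 members (58.8%, against 55.9% of all genes) and below for 4 (11.8%, against 8.23%), namely ZBTB7A, ZBTB11, ZBTB34 and ZBTB45. The gap between WT clone means exceeded the WT minus KO difference for 25 of 34 members and for 63.3% of all genes. The median size was 9.49 points for the WT clones, 7.53 for the KO clones and 4.98 for the genotypes. A gap between 2 single clones and a difference between means of 2 clones do not vary alike, so these sizes are only set side by side.

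The widest WT gaps were at ZBTB16 (73.1 points, for which the WT_4 value comes from another site), ZBTB3 (48.9), ZBTB17 (42.5) and ZBTB5 (26.0), followed by ZBTB22 (22.7), ZBTB43 (21.9), ZBTB47 (21.3) and ZBTB37 (21.1). ZBTB3 stood at 36.4 and 39.4 in WT_4 and at 85.8 and 87.8 in WT_5. ZBTB5, which represses the p21 gene, stood at 73.2 and 68.9 in WT_4 and at 96.2 and 98.0 in WT_5. The KO values of both genes lay within the span of the WT libraries but for ZBTB5 in KO_C5 with IFNγ, at 98.3. The WT_5 lists were the longer, with 29656 and 37655 peaks against 21826 and 18964 for WT_4. Ranked among shared promoters only, WT_5 was above WT_4 for 9 members (ZBTB3, ZBTB4, ZBTB5, ZBTB7B, ZBTB16, ZBTB17, ZBTB22, ZBTB37 and ZBTB43) and below for 14, beside 26.8% and 37.6% of all genes.

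**Figure D4:**
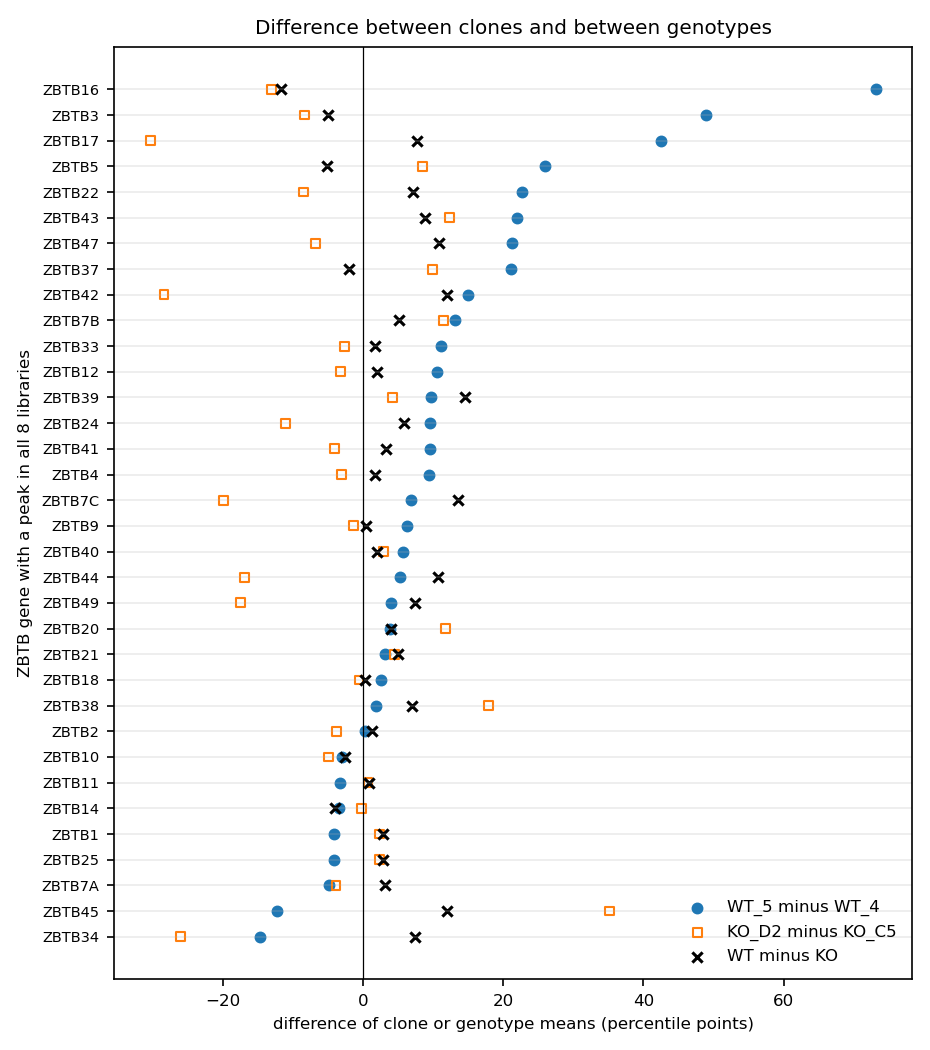
Differences of mean percentile (x axis, points) for the 34 members with a peak in all 8 libraries (y axis, ordered by the WT clone gap): WT_5 minus WT_4 (blue circles), KO_D2 minus KO_C5 (orange squares) and WT minus KO (black crosses). The crosses lie between −11.6 and 14.6 points, while the blue circles reach 73.1 points at ZBTB16.

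GC content was set beside these gaps as a description. Over the 34 members, the WT_5 minus WT_4 gap had a correlation across genes of −0.152 (Pearson) and −0.245 (Spearman) with the GC content at the TSS, and over 10395 genes the Spearman value was −0.388. In the same order the values were −0.297, −0.358 and −0.226 for KO_D2 minus KO_C5. For WT minus KO they were 0.15, 0.131 and 0.085. Genes of 1 library share its depth and composition and are not independent replicates. The part of GC content in the clone gaps was not tested.

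The second comparison asked how IFNγ moved these promoters. All 4 IFNγ libraries lay above all 4 untreated libraries for 1 of 34 members, ZBTB38 (2.94%, against 0.895% of 10395 genes), and below for 0 (0.0673% of genes). ZBTB38 binds methylated CpG, and its peak lay at chr3:141368163-141368919 over the canonical TSS. The untreated ZBTB38 percentiles were 77.9 in WT_4, 77.5 in WT_5, 47.0 in KO_C5 and 79.6 in KO_D2, and those with IFNγ were 81.7, 86.1, 82.8 and 86.1. The groups did not overlap, and most of the difference came from 1 low untreated library, KO_C5.

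The mean of ZBTB38 was 70.5 ± 15.7 untreated and 84.2 ± 2.23 with IFNγ (SD, n = 4 libraries), a difference of 13.7 points, which was 5.85 points without KO_C5 untreated. Since ZBTB38 was named for groups that do not overlap, its exact permutation p over 70 assignments is fixed at the smallest possible, two-sided p = 0.0286, and adds nothing to the description. With the libraries paired by clone, 4 pairs could not give an exact two-sided p below 0.125. Under limma the adjusted p was 0.999 (Benjamini-Hochberg over all genes), or 0.151 with clone as a block. The difference was 12.3 points with lists cut to equal length and 15.8 points with promoters ranked among shared ones, both at an exact permutation p = 0.257. ZBTB21, named after its values were seen, had means of 83.3 ± 4.62 untreated and 89.0 ± 3.71 with IFNγ. It was higher in 4 of 4 clones, by 5.67 points on average. The exact permutation p over 70 assignments was 0.0571, which did not pass. Those assignments ignore the pairing by clone, under which the limit of 0.125 holds here too.

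Across the fit of all genes, limma called 0 of 10395 genes for IFNγ, with 224 at an unadjusted p under 0.05, and 0 members at either level. Each clone gave both an untreated and a treated library, and with clone as a block limma called 580 genes, 578 of them higher, including 1 member, ZBTB5 (1.87 ± 0.44 SE in log2 odds of the percentile, adjusted p = 0.0271). With clone as a block and promoters ranked among shared ones limma called 0 genes (1624 at an unadjusted p under 0.05), and the adjusted p of ZBTB5 was 0.243. With equal lists and the block it also called 0 (1678 at an unadjusted p under 0.05), with an adjusted p of 0.188 for ZBTB5. Within the KO clones the blocked fit called 1367 genes, of which 1357 were higher, or 13.1% of the genes tested. Of the members, 5 of 34 (ZBTB3, ZBTB5, ZBTB16, ZBTB37 and ZBTB43) were called higher, a share near that of all genes. Within the WT clones it called 0 genes, with 336 at an unadjusted p under 0.05. List length differed in the same direction: the IFNγ lists of the KO clones held 27554 and 24807 peaks against 19351 and 16788 untreated, and the log2 odds of all genes shifted by a median of 0.48. With promoters ranked among shared ones the blocked fit called 0 genes in the KO clones (1918 at an unadjusted p under 0.05), and with equal lists it called 3, none of them a member.

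Of the called members, ZBTB5 had the largest blocked difference. The peak region was chr9:37464698-37466853, over the start of the gene. Its percentile in KO_C5 was 71.5 untreated and 98.3 with IFNγ, and in KO_D2 89.3 and 97.6. In WT_4 it was 73.2 and 68.9 and in WT_5 96.2 and 98.0. The blocked difference in the KO clones was 3.41 ± 0.62 in log2 odds (adjusted p = 0.00492, limma with Benjamini-Hochberg), and 3.14 ± 0.73 with an adjusted p of 0.173 among shared promoters. The promoter sequence shown above belongs to a peak with a median width of 1839 bp. Fold enrichment there, untreated and with IFNγ, was 16.5 and 43.4 in KO_C5 and 25.8 and 31.1 in KO_D2. In WT_4 it was 32.2 and 21.7, and in WT_5 54.2 and 82.1.

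ZBTB43 (peak region chr9:126804784-126805321) stood at 34.4 and 79.7 in KO_C5 and at 58.4 and 80.2 in KO_D2, untreated and with IFNγ, a blocked difference of 2.22 ± 0.56 (adjusted p = 0.017 by limma). ZBTB3 (chr11:62753759-62754606) stood at 59.4 and 83.7 in KO_C5 and at 45.1 and 81.3 in KO_D2 (2.11 ± 0.53, adjusted p = 0.0171 by limma). ZBTB37 (chr1:173867704-173868879, shared with GAS5) stood at 71.9 and 90.5 and at 86.8 and 95.5 (1.79 ± 0.54, adjusted p = 0.0372 by limma), and the strong ZBTB16 site at 57.2 and 78.8 and at 34.1 and 75.8 (2.03 ± 0.57, adjusted p = 0.0277 by limma). In WT_5 the same 4 genes lay at 82.1 to 95.0 in both treatments. All 5 called members had a WT_5 minus WT_4 gap of 21.1 points or more. So did ZBTB17, ZBTB22 and ZBTB47, which were not called. The WT_5 mean was above the WT_4 mean for 26 of 34 members and 79.7% of all genes.

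**Figure D5:**
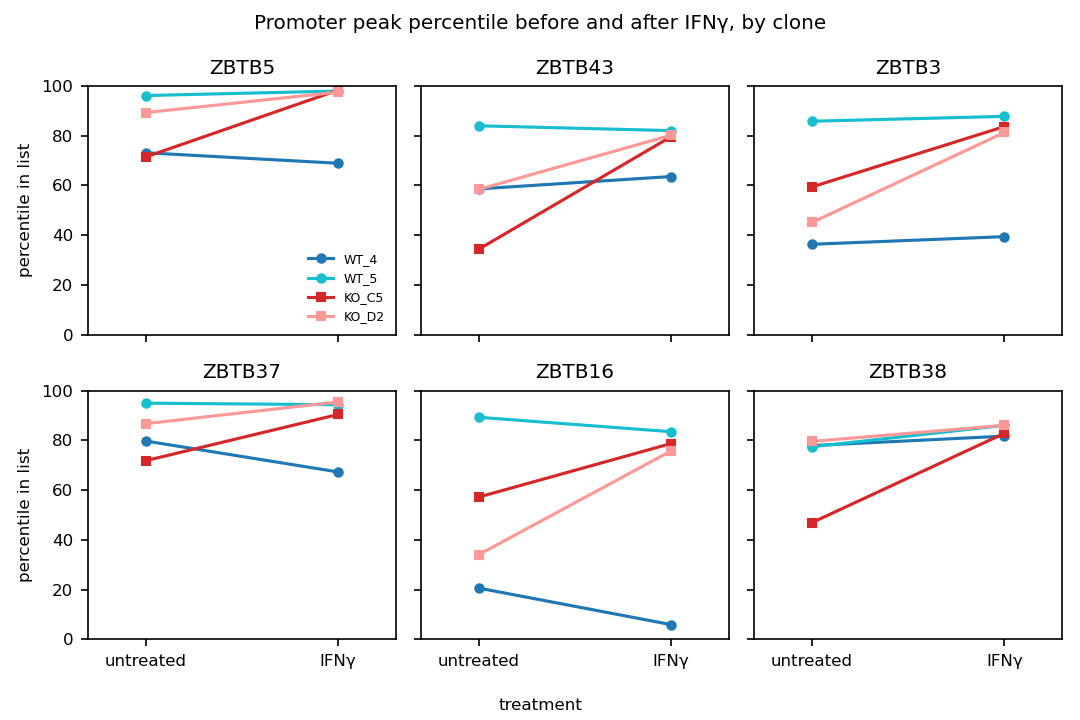
Percentile within the list (y axis, 0 to 100) of the promoter peak before and after IFNγ (x axis) in each clone for the 5 members called in the KO clones with clone as a block and for ZBTB38. Lines join the 2 libraries of a clone, WT with circles and KO with squares. Both KO lines run upwards for all 6 genes, while the WT_5 line (light blue) stays at 77.5 or above.

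The third comparison was the difference between genotypes in the IFNγ response. The percentile with IFNγ was lower in both WT clones and higher in both KO clones for 6 of 34 members, ZBTB16, ZBTB22, ZBTB33, ZBTB37, ZBTB39 and ZBTB49 (17.6%, against 7.88% of all genes). The opposite pattern was found for 0 members and 1.86% of genes. By limma the interaction called 0 genes (67 at an unadjusted p under 0.05, no member among them), and 2 with clone as a block, neither a member. The blocked fit called 0 among shared promoters (811 at an unadjusted p under 0.05) and 0 with equal lists (909). Among shared promoters the pattern held for 4 members (11.8%, against 5.08% of genes), ZBTB16, ZBTB20, ZBTB22 and ZBTB37.

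The percentile with IFNγ was higher in both KO clones for 21 of 34 members (61.8%, against 57.0% of all genes) and in both WT clones for 7 (20.6%, against 25.7%). The median change over the members was −5.44 points in WT_4, 1.48 in WT_5, 4.75 in KO_C5 and 5.28 in KO_D2, beside −2.82, 2.64, 2.52 and 6.21 over all genes. The lowest differences were in WT_4, where ZBTB47 had 52.9 untreated and 21.4 with IFNγ, ZBTB34 had 55.9 and 35.6, and ZBTB42 had 63.5 and 43.6. These are single libraries. That library had 18964 peaks, the shortest list among the WT libraries.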

How the data were processed

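FAIRE-seq was performed by the study in 8 U2OS libraries. Per the submitters' processing notes and the methods, the authors trimmed reads with Trimmomatic, aligned them to GRCh38 with Bowtie2 2.2.5, filtered them with SAMtools 1.14 and called peaks per library with MACS2 2.2.7.1. The deposited lists give each peak's fold enrichment, −log10 p and −log10 q, and a score that was not used. Fold enrichment is a ratio of summit pileup to local background with the same constant added to both, so it is not their plain ratio. Whether input DNA served as the control is not given in the sources used here.

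Peaks overlapping 1 kb around any GENCODE 44 TSS were assigned to a gene and ranked within their list. Pileup and background were solved from fold and −log10 p by inverting the Poisson tail that MACS computes, for all 8 lists, within 0.5% of −log10 p. limma 3.58.1 (R 4.3.3) was fitted to log2 odds of the percentile over the 10395 genes with a peak in all 8 libraries, on clone means for genotype and on libraries for IFNγ, with Benjamini-Hochberg adjustment at 0.05. The 2 libraries of a clone deviated together (correlations of 0.707 in WT and 0.49 in KO), and the labels name the clone, so clone was also fitted as a block. The labels do not say whether a replicate number shared by a WT and a KO clone pairs them, and it was not used as a pairing. Single values were tested by exact permutation over 6 assignments of clones or 70 of libraries, two-sided. p-values measure the spread between these clones and libraries. The members, the role and marker lists, the motifs and the tests were chosen with earlier results of these data known. Some genes of the role and marker lists are not reported here. Named with values were members with a peak in fewer than 8 libraries, the 8 highest and 5 lowest, members whose groups did not overlap or that a fit called, and the role lists. ZBTB7C, ZBTB14, ZBTB21, the wide WT gaps and the 3 IFNγ falls in WT_4 were named after their values were seen. Alternatives were another window, summits only, canonical TSS only, −log10 q of at least 3, fold of at least 4, equal list lengths, 2 other scales (the percentile of fold enrichment, and log2 fold enrichment centred on the median of its list), genes in at least 6 libraries, each library left out and, added after seeing the data, ranks among shared promoters and plain folds for overlap between genotypes. Python 3.11.15, pandas 2.3.3 and scipy 1.17.1 were used, and scripts were tested on simulated data.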

Additional observations from a re-analysis of the deposited data

Results flagged for a closer look

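For 6 members the percentile with IFNγ was lower in both WT clones and higher in both KO clones. Some of the changes were small. They were −0.344 points for ZBTB22, −0.615 for ZBTB37 and −1.23 for ZBTB33 in WT_5, and −0.67 for ZBTB49 in WT_4. Among shared promoters ZBTB16, ZBTB22 and ZBTB37 kept the pattern, while ZBTB33, ZBTB39 and ZBTB49 did not. The change in the KO clones minus that in the WT clones was 41.9 percentile points for ZBTB16, 25.2 for ZBTB22, 20.2 for ZBTB37, 17.3 for ZBTB39, 10.8 for ZBTB33 and 7.40 for ZBTB49. In the limma interaction fit the unadjusted p was 0.276, 0.207, 0.189, 0.261, 0.39 and 0.606 in that order, and with clone as a block the adjusted p was 0.125, 0.361, 0.194, 0.618, 0.721 and 0.855, so none passed. The same pattern was present in 7.88% of all genes tested, and the lists of both KO clones and of WT_5 lengthened with IFNγ while the WT_4 list shortened. For ZBTB16 the WT_4 values come from a different site than those of the other clones. Groups here hold 2 libraries, too few to look for a library far from the others of its group.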

How the results depend on the processing

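The count of members with a peak in all 8 libraries was 30 to 34 under the 6 other peak rules and 34 or 35 with a library left out. Over all genes it was 9402 to 10331 and 10399 to 10728, beside 10395 under the main rule. The count of members with none was 1 in each but for the canonical TSS alone, where it was 2 (ZBTB18 was added). Members whose genotypes did not overlap numbered 0, but with WT above KO 1 by the percentile of fold enrichment (ZBTB39; 13.3% of all genes) and 3 by log2 fold enrichment centred on the list median (ZBTB1, ZBTB11 and ZBTB25, the first and last sharing a peak; 16.5% of all genes). With a library left out they numbered 0 to 5: 5 without WT_4 with IFNγ (ZBTB12, ZBTB14, ZBTB39, ZBTB42 and ZBTB47; 15.0% of all genes with WT above KO and 0.399% below), 1 without KO_C5 untreated (ZBTB7C; 10.4% above) and 1 without KO_D2 with IFNγ (ZBTB39; 9.88% above).

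With the replicate block, limma calls were 580 for IFNγ, 2 for the interaction and 1367 for IFNγ in KO clones. With the block and ranks among shared promoters all 3 counts were 0, and with the block and equal list lengths they were 0, 0 and 3. The cause was not tested. By centred log2 fold enrichment 1 gene passed for IFNγ, and with a library left out calls ranged from 0 to 1, the 1 arising without WT_4 untreated, both for IFNγ overall and within WT clones. With 1 library left in a group, that library is assumed to vary like the others. The ZBTB14 difference reversed to 0.13 by centred log2 fold enrichment. The ZBTB38 difference was 13.1 to 14.5 points with an IFNγ library left out and 0.62 by centred log2 fold enrichment. Equal lists gave no value for ZBTB39, which then lacked peaks in 2 libraries. Peak lists give no counts, so weak promoters without a peak may lie under the calling limit of a library.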
